A study of Homo sapiens with 12 samples.

Results

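The miR-17-92 and miR-106b-25 clusters each yield several mature miRNAs from one primary transcript, and 9 of these mature miRNAs were followed while TGF-β drove the epithelial-to-mesenchymal transition (EMT). They were the rows of the count table that carried a listed name, and, where a name stood on several precursor rows, the row with the highest total was kept. This gave 6 miRNAs of miR-17-92 (miR-17-5p, miR-18a-5p, miR-19a-3p, miR-20a-5p, miR-19b-3p and miR-92a-3p) and 3 of miR-106b-25 (miR-106b-5p, miR-93-5p and miR-25-3p), 9 of 2588 mature miRNAs in the table. All 9 passed the filter on low counts, as did 491 miRNAs in total. The small RNA of A549 cells, a human lung adenocarcinoma line with epithelial traits, was sequenced before TGF-β (0 h) and after 24 and 96 h with it. There were 2 libraries at each time point, 6 in all, each run on the sequencer 2 times. By the dates in the sample titles, all libraries shared the date of the first run. The second runs of the 24 h libraries had an earlier date than those of the 96 h libraries, and the 0 h libraries were split between these dates. From 24 to 96 h, time and the date of the second run therefore cannot be told apart. No culture kept for 24 or 96 h without TGF-β was analysed here, so time in culture and TGF-β cannot be told apart.

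A mature miRNA guides the silencing complex to messenger RNAs mainly through its seed, bases 2 to 8 counted from the 5′ end, so miRNAs with one seed share many predicted targets. The miR-17-92 cluster is an oncogenic cluster induced by MYC, and the miR-106b-25 cluster sits in an intron of MCM7, a gene of DNA replication. Members with the miR-17 seed are known to repress the cell cycle inhibitor CDKN1A and the TGF-β receptor TGFBR2, miR-18a to repress components of the SMAD pathway, and the miR-92 seed group to repress the pro-apoptotic BCL2L11.

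The mature sequences are shown because the 9 members fall into 4 seed groups that cut across the 2 clusters. They were taken from RefSeq (GRCh38.p14), are written 5′ to 3′, and have the seed in capitals. The miR-17 seed was shared by 4 members of both clusters:
hsa-miR-17-5p: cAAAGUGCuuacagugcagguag
hsa-miR-20a-5p: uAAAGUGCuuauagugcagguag
hsa-miR-106b-5p: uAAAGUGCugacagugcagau
hsa-miR-93-5p: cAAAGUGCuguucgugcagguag
The miR-18 seed differs from it by 1 base and belonged to 1 member:
hsa-miR-18a-5p: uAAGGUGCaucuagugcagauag
The miR-19 seed was carried by 2 members, both of miR-17-92:
hsa-miR-19a-3p: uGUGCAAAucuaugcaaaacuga
hsa-miR-19b-3p: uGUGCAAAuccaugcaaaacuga
The miR-92 seed was carried by the last miRNA of each cluster, and miR-92b-3p, which lies in neither cluster, is shown with them because its reads are set against theirs below:
hsa-miR-92a-3p: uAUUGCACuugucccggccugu
hsa-miR-25-3p: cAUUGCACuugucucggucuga
hsa-miR-92b-3p: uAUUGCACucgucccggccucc

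Positions are counted from the 5′ base. The pair miR-19a-3p and miR-19b-3p differed by U11C alone, and miR-17-5p and miR-20a-5p by C1U and C12U. From miR-92a-3p to miR-25-3p the substitutions were U1C, C14U, C18U and U22A, and to miR-92b-3p they were U10C, G21C and U22C. Within a seed group, the members therefore differed only outside the seed.

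By exact match to GRCh37, the 6 miRNAs of miR-17-92 lay within chr13:92002872-92003636 on the plus strand, a stretch of 765 bases, in the order miR-17-5p (chr13:92002872-92002894), miR-18a-5p (chr13:92003010-92003032), miR-19a-3p (chr13:92003193-92003215), miR-20a-5p (chr13:92003326-92003348), miR-19b-3p (chr13:92003499-92003521) and miR-92a-3p (chr13:92003615-92003636). All lay within the non-coding host gene MIR17HG, exonic in 3 and intronic in 8 of its overlapping annotated transcripts. The miR-106b-25 miRNAs lay on the minus strand of chromosome 7, miR-106b-5p at chr7:99691666-99691686, miR-93-5p at chr7:99691438-99691460 and miR-25-3p at chr7:99691194-99691215, in introns of MCM7. Only chromosomes 7, 13 and X were searched. Within these, miR-19b-3p and miR-92a-3p, of the 9, also matched a second place, on chromosome X within the related miR-106a-363 cluster (MIR19B2 and MIR92A2). Reads of these 2 mature miRNAs from chromosomes 13 and X cannot be told apart.

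Totals on mature miRNAs were 2335185 to 2456447 reads before TGF-β, 2545769 to 3214230 after 24 h and 4658823 to 5971197 after 96 h. The share of one miRNA, miR-21-5p, was 52.4% to 56.1% of these reads at 0 h and 63.8% to 65.5% after 96 h, and a value per total reads moves with it. Levels are therefore given as counts per 1000000 reads, scaled with the trimmed mean of M values (TMM-CPM), and directions that depend on this scaling are named. On this scale the 491 tested miRNAs had a median log2-fold change from 0 to 96 h of -0.10, and with total counts as the scale it was -0.83. Epithelial miRNAs (7 listed, all with a read) summed to 126 TMM-CPM in both libraries at 0 h and to 246 and 254 after 96 h, but did not move together. miR-200b-3p went from 45.1 and 43.0 TMM-CPM to 148 and 120, and miR-200a-3p from 37.02 and 44.8 to 64.5 and 79.2. miR-200c-3p stood at 22.4 and 13.7 against 17.02 and 17.9, miR-141-3p at 3.30 and 3.88 against 1.13 and 2.17, and miR-205-5p was at 0 in both 96 h libraries. The blood list (6 miRNAs, 2 of them, miR-223-3p and miR-150-5p, at 0 in all libraries) stayed at or below 5.498 TMM-CPM. The fibroblast and smooth muscle list (4 miRNAs, miR-214-3p at 0) ranged from 0.896 to 2.57 before TGF-β and from 8.68 to 9.76 after 96 h. This rise lay mainly in miR-145-5p, from 0.37 and 0 to 6.58 and 6.78 TMM-CPM (1 and 0 against 29 and 25 reads). miR-199a-3p stood at 1.83 and 0.90 against 2.27 and 1.90, and miR-199a-5p at 0.37 and 0 against 0.91 and 0. The endothelial list (miR-126-3p and miR-126-5p) ranged from 404 to 516 over all libraries. The part of these lists in the results that follow was not tested.

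Within each cluster, some members had fallen at 96 h and others had not passed the test. Of the 9 members, 5 had fallen from 0 to 96 h at an adjusted p under 0.05: miR-17-5p, miR-18a-5p, miR-19a-3p, miR-106b-5p and miR-93-5p. The other 4, miR-20a-5p, miR-19b-3p, miR-92a-3p and miR-25-3p, did not pass the test. The 3 members of miR-17-92 and 2 of miR-106b-25 that fell compare with 21.2% of all 491 tested miRNAs that fell at this threshold. The median log2-fold change was -0.48 over the 9 members, -0.46 over miR-17-92 and -0.67 over miR-106b-25. No member rose, against 22.8% of all tested miRNAs. With DESeq2 size factors as the scale, 4 members fell and miR-92a-3p rose. One member, miR-18a-5p, also passed the study's threshold of an absolute log2-fold change above 1, against 13.2% of all miRNAs in that direction. No member passed when 96 h replicate 1 was left out, and only miR-18a-5p and miR-19a-3p did so when 96 h replicate 2 was, each time in a test with 1 library at 96 h. Without 96 h replicate 1 the log2-fold changes were -0.49 for miR-17-5p, -0.95 for miR-18a-5p, -0.92 for miR-19a-3p, -0.68 for miR-106b-5p and -0.59 for miR-93-5p, and all 5 kept their direction without either library. Whether or not they passed the test, 7 of the 9 were lower in both 96 h libraries than in both 0 h libraries, against 38.7% of all miRNAs, and 1 was higher in both, against 33.0%.

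**Figure D1:**
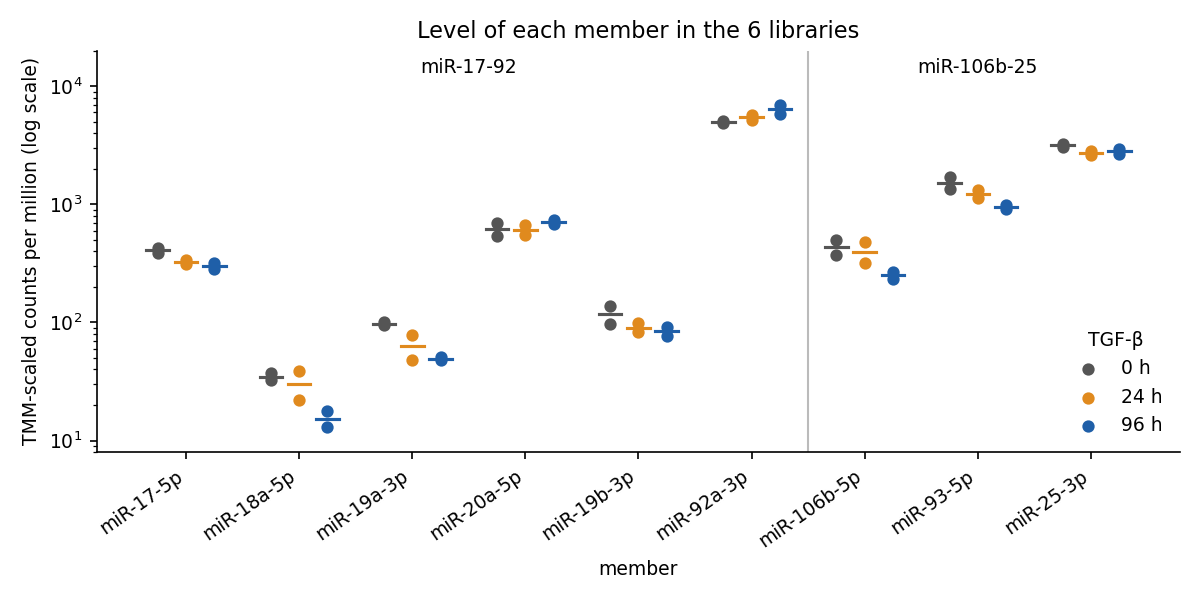
Level of each member in each library, as TMM-CPM on a log axis, with 2 libraries (points) and their mean (line) at 0, 24 and 96 h, and the 2 clusters divided by a grey line. Levels spanned from 12.9 (miR-18a-5p at 96 h) to 6898 (miR-92a-3p at 96 h). Both 96 h points lay below both 0 h points for 7 members, all but miR-20a-5p, which overlapped, and miR-92a-3p, which lay above.

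Before TGF-β, miR-92a-3p was the most abundant member, at 4983 ± 101 TMM-CPM (SD, n = 2) and place 16 among all mature miRNAs. It was followed by miR-25-3p (3159 ± 110, place 25), miR-93-5p (1530 ± 238), miR-20a-5p (620.1 ± 108), miR-106b-5p (435 ± 88.0), miR-17-5p (409 ± 25.6), miR-19b-3p (118 ± 29.5), miR-19a-3p (97.8 ± 3.07) and miR-18a-5p (34.8 ± 3.58, place 223). In this order the libraries of miR-106b-5p and miR-17-5p overlapped, as did those of miR-19b-3p and miR-19a-3p, and all other neighbours were apart in both libraries. Read numbers of different miRNAs also reflect how well each is ligated and amplified, which was not measured. In the 5 libraries whose runs could be separated, the share of a member in one run and in the other differed by a median of 0.05 on the log2 scale over 45 pairs, and by at most 0.37 (miR-106b-5p in 0 h replicate 1).

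The miR-17 seed group had members that fell and one that did not. Expression of miR-17-5p was 427 and 390 TMM-CPM before TGF-β, 315 and 337 after 24 h, and 318 and 285 after 96 h. Both later times lay below 0 h without overlap, and the log2-fold change at 96 h was -0.44 ± 0.14 (SE, adjusted p = 0.0317 by the edgeR quasi-likelihood test, Benjamini-Hochberg adjusted over the 491 miRNAs, as in all such values below). This call is the weakest of the 5: it was lost under 10 of 15 alternatives, with the direction kept. Its cluster neighbour miR-20a-5p, which shares 21 of 23 bases with it, stood at 696 and 544 before TGF-β, 549 and 674 after 24 h, and 733 and 686 after 96 h. The libraries of 0 and 96 h overlapped, and the log2-fold change was 0.19 ± 0.17 (edgeR, adjusted p = 0.37). With total counts as the scale it was -0.52 and called lower (edgeR, adjusted p = 0.0152). Against the median of all tested miRNAs it was 0.29 higher on the log2 scale with TMM and 0.31 with total counts. Without 0 h replicate 1, miR-20a-5p passed the test as higher at 96 h, with a log2-fold change of 0.43.

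Both miR-106b-25 members of the miR-17 seed group fell. For miR-106b-5p the values were 373 and 498 TMM-CPM before TGF-β, 476 and 318 after 24 h, and 234 and 267 after 96 h. Only the 96 h libraries lay below 0 h without overlap, and the log2-fold change was -0.80 ± 0.21 (edgeR, adjusted p = 0.0130). miR-93-5p, the most abundant miRNA with this seed, measured 1362 and 1698 before TGF-β, 1325 and 1125 after 24 h, and 919 and 997 after 96 h. Its means stepped down at each time, and the log2-fold change at 96 h was -0.67 ± 0.16 (edgeR, adjusted p = 0.0069). Both calls were lost when either 96 h library was left out, which leaves 1 library at that time, and held in the other 13 alternatives. The log2-fold changes were then -0.68 and -0.85 for miR-106b-5p, and -0.59 and -0.69 for miR-93-5p.

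The largest decrease among the members was that of miR-18a-5p, which is also the least abundant. It was counted 88 and 125 times before TGF-β, 104 and 72 times at 24 h, and 57 and 65 times at 96 h, or 32.3 and 37.3, 38.7 and 22.0, and 12.9 and 17.6 TMM-CPM. The 24 h libraries spanned both 0 h libraries and only the 96 h libraries lay lower, with a log2-fold change of -1.19 ± 0.30 (edgeR, adjusted p = 0.0098). The call was lost without 96 h replicate 1 and held in the other 14 alternatives.

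Of the miR-19 seed pair, miR-19a-3p fell and miR-19b-3p missed the threshold. miR-19a-3p was counted 261 and 335 times before TGF-β, 210 and 158 times at 24 h, and 211 and 187 times at 96 h, or 97.8 ± 3.07, 63.3 ± 21.1 and 49.3 ± 2.01 TMM-CPM (SD, n = 2). One of the 24 h libraries (48.4 TMM-CPM) was already within the range of the 96 h libraries (47.9 and 50.7), and the log2-fold change at 96 h was -0.99 ± 0.23 (edgeR, adjusted p = 0.0066), a call lost without 96 h replicate 1. miR-19b-3p, whose sequence differs at 1 base, gave 96.8 and 139 before TGF-β, 98.7 and 82.3 after 24 h, and 91.2 and 77.1 after 96 h. The 96 h libraries were below both before TGF-β, with a log2-fold change of -0.48 ± 0.21 (edgeR, adjusted p = 0.0806). Within a library, the ratio of miR-19a-3p to miR-19b-3p reads was 0.989 and 0.722 before TGF-β and 0.525 and 0.658 after 96 h.

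The miR-92 seed members made up most of the reads, and neither passed the test on the TMM scale. miR-92a-3p was at 4911 and 5054 TMM-CPM before TGF-β, 5713 and 5186 after 24 h, and 5869 and 6898 after 96 h. Each later library exceeded both before TGF-β, yet the log2-fold change of 0.36 ± 0.14 after 96 h did not pass the test (edgeR, adjusted p = 0.0629), and it was -0.37 with total counts as the scale. Against the median of all tested miRNAs it was 0.46 higher on the log2 scale under both scalings. For miR-25-3p the values were 3082 and 3236 before TGF-β, 2823 and 2635 after 24 h, and 2663 and 2954 after 96 h. These were lower at both later times without overlap, by a log2-fold change of -0.17 ± 0.13 after 96 h that did not pass (edgeR, adjusted p = 0.33). It was called lower with total counts, at -0.90 (edgeR, adjusted p = 0.0017), and with miR-21-5p left out of these, at -0.52 (edgeR, adjusted p = 0.0107). Against the median of all tested miRNAs it stood at -0.07 with TMM and with total counts.

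**Figure D2:**
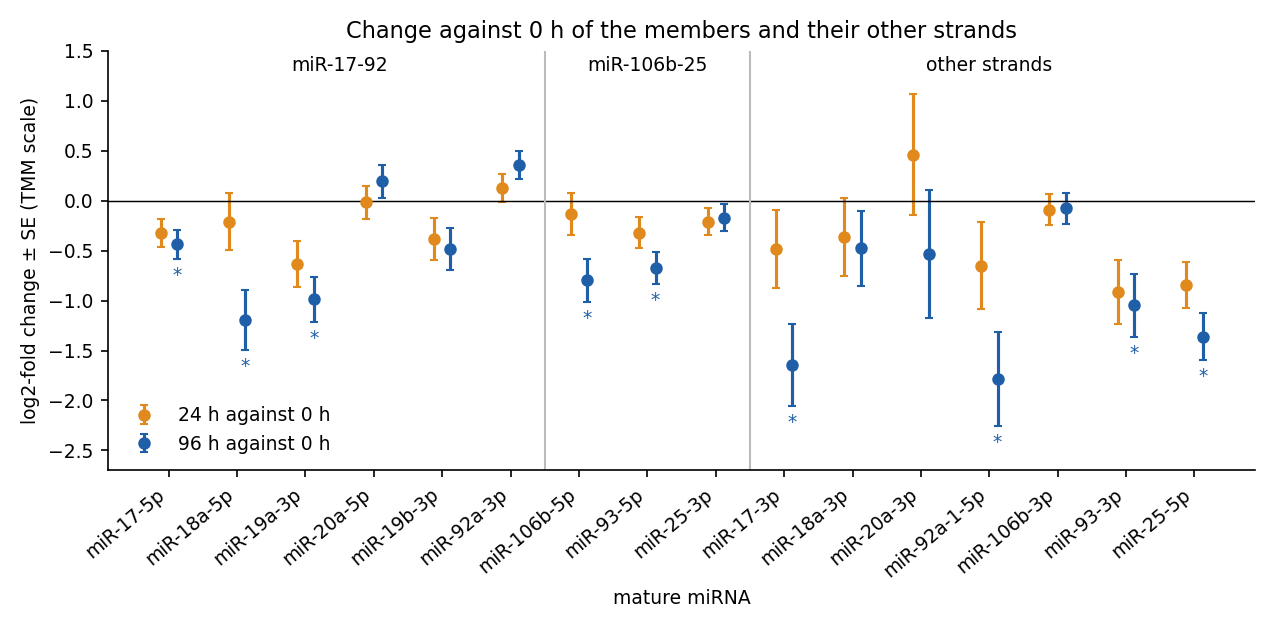
Log2-fold change against 0 h (edgeR, TMM scale, points with SE bars) at 24 h and 96 h for the 9 members and the 7 other strands that passed the filter, with asterisks at an adjusted p under 0.05. At 24 h no asterisk appears, and at 96 h there are 5 among the members and 4 among the other strands.

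No member passed the test at 24 h. From 0 to 24 h, edgeR called 0 of the 9 members at an adjusted p under 0.05, against 3.67% of all tested miRNAs called lower and 3.46% higher, and DESeq2 and limma also called 0. With the fold threshold as well, the shares of all miRNAs were 2.24% lower and 1.22% higher. At an unadjusted p under 0.05 there were 2 members, miR-17-5p (log2-fold change -0.32 ± 0.14) and miR-19a-3p (-0.63 ± 0.23), against 28.3% of all miRNAs. Both 24 h libraries lay below both 0 h libraries for 4 members (miR-17-5p, miR-19a-3p, miR-93-5p and miR-25-3p), against 28.5% of all miRNAs, and above them for miR-92a-3p alone, against 29.3%. Without 0 h replicate 1, miR-19b-3p was called lower. The median over the 9 members was -0.21, and over all tested miRNAs it was 0.00 to 2 decimals.

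Between 24 and 96 h, edgeR again called 0 of the 9 members, against 3.67% of all miRNAs called lower and 8.96% higher, and DESeq2 also called 0. limma on the normalized values called 0 as well, with a single library at 96 h. With the fold threshold these shares were 2.24% and 3.67%. The 3 with an unadjusted p under 0.05 (31.0% of all miRNAs) were miR-18a-5p at -0.98 ± 0.30, miR-106b-5p at -0.66 ± 0.21 and miR-93-5p at -0.35 ± 0.16. These were also the 3 members whose 96 h libraries lay below both 24 h libraries (31.6% of all miRNAs), while those of miR-20a-5p and miR-92a-3p lay above (30.3%). The calls here turned with single libraries: miR-18a-5p and miR-106b-5p passed without either 0 h library, and miR-18a-5p passed without 24 h replicate 2.

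A ratio of reads within one library needs no scaling between libraries, so the 2 clusters were also set against each other in this way. The summed reads of the 3 miR-106b-25 members over those of the 6 miR-17-92 members were 0.769 and 0.867 before TGF-β, 0.681 and 0.642 after 24 h, and 0.540 and 0.526 after 96 h. The 3 time points did not overlap, and the mean ratio at 96 h was 0.652-fold that at 0 h (geometric means). An exact permutation test, two-sided, of 2 against 2 libraries has 0.333 as its smallest p, so none was computed. Most of the reads in this ratio came from the 2 miR-92 seed members: miR-92a-3p held 78.5% to 86.1% of the miR-17-92 reads and miR-25-3p 59.6% to 70.0% of the miR-106b-25 reads. Alone, miR-25-3p over miR-92a-3p was 0.627 and 0.640 before TGF-β, 0.494 and 0.508 after 24 h, and 0.454 and 0.428 after 96 h. Its mean log2 change from 0 to 96 h was -0.52, near the median of -0.46 over 486 tested miRNAs set against miR-92a-3p. Of these 486, 53.3% had a ratio that was lower at 96 h without overlap. No such share was computed for the summed ratio.

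The time points overlapped once the miRNAs with a second genomic copy were left out of miR-17-92 alone. Without miR-19b-3p and miR-92a-3p, the cluster ratio was 3.85 and 5.07 before TGF-β, 4.71 and 3.77 after 24 h, and 3.43 and 4.06 after 96 h, and the libraries of all 3 times overlapped. When miR-25-3p was left out of miR-106b-25 as well, which removes the miR-92 seed from both clusters, the ratio was 1.39 and 2.05 before TGF-β, 1.83 and 1.33 after 24 h, and 1.04 and 1.22 after 96 h. Both 96 h libraries then lay below all earlier ones, while those of 0 and 24 h overlapped. With every member given equal weight, as geometric means of the counts, it was 4.22 and 4.88 before TGF-β and 4.03 and 4.34 after 96 h, again overlapping. The mean log2 change from 0 to 96 h was -0.62 for summed reads, -0.24 without the 2 miRNAs, -0.59 without these and miR-25-3p, and -0.12 with equal weights.

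**Figure D3:**
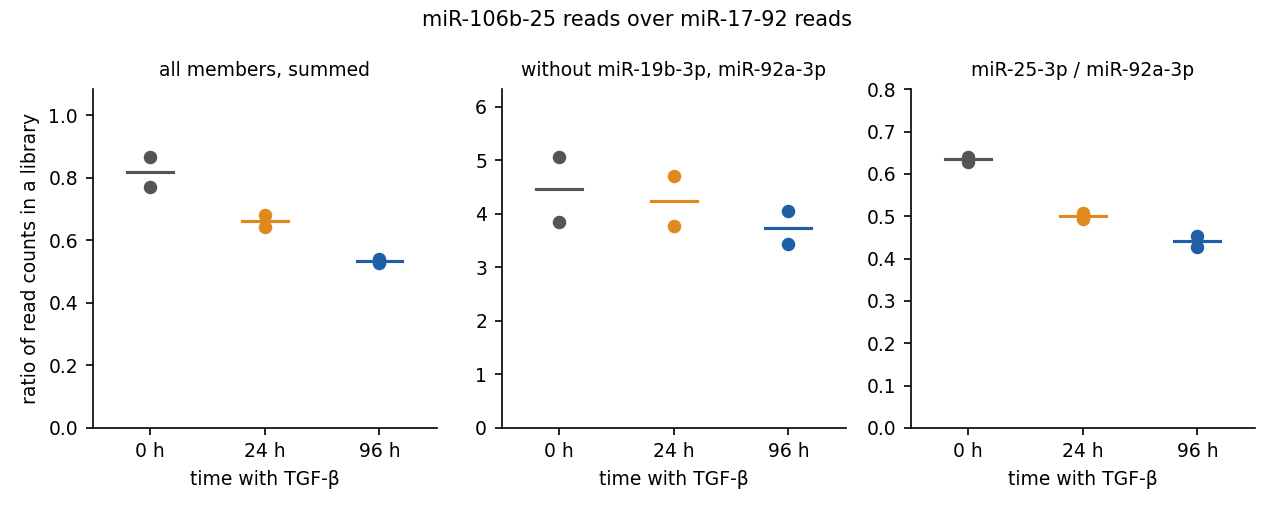
Ratio of miR-106b-25 to miR-17-92 read counts within each library (points, with the mean of 2 as a line) at 0, 24 and 96 h, for all members summed, without miR-19b-3p and miR-92a-3p, and for miR-25-3p over miR-92a-3p. The time points are apart in the left and right panels (0.526 to 0.867 and 0.428 to 0.640) and overlap in the middle one (3.43 to 5.07).

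As a share of all mature miRNA reads, miR-17-92 held 0.731% (95% Wilson interval 0.721 to 0.742) and 0.854% (0.843 to 0.866) before TGF-β, 0.717% (0.706 to 0.727) and 0.646% (0.637 to 0.654) after 24 h, and 0.522% (0.516 to 0.528) and 0.634% (0.627 to 0.641) after 96 h. The miR-106b-25 cluster held 0.563% (0.553 to 0.572) and 0.741% (0.730 to 0.752), 0.488% (0.479 to 0.496) and 0.415% (0.408 to 0.422), and 0.282% (0.277 to 0.286) and 0.334% (0.329 to 0.339), respectively. Libraries of one time point differed by more than these intervals, which cover counting error only. The mean log2 change from 0 to 96 h was -0.46 for miR-17-92 and -1.07 for miR-106b-25. With miR-21-5p left out of the total these became -0.09 and -0.70.

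Within the reads of the 9 members, the summed share of the miR-92 seed rose, but its 2 members did not move together. On the TMM scale, both 96 h libraries lay above 0 h for miR-92a-3p and below it for miR-25-3p. The log2-fold changes were 0.36 and -0.17, and neither passed the test on this scale. Together the 2 members held 72.2% and 70.9% of these reads before TGF-β, 74.8% and 75.0% after 24 h, and 78.4% and 80.5% after 96 h. The 4 members with the miR-17 seed held 25.8% and 26.8%, then 23.3% and 23.5%, then 20.3% and 18.3%. Both series ran without overlap between time points. These 2 groups held nearly all reads of the 9 members, so one share falls when the other rises, and their opposite directions are not separate results. The miR-19 seed pair went from 1.74% and 2.04% at 0 h to 1.28% and 1.04% after 96 h, and miR-18a-5p from 0.291% and 0.319% to 0.119% and 0.144%. For shares of all mature miRNA reads, the widest 95% Wilson interval of any group in any library spanned 0.0313 percentage points.

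**Figure D4:**
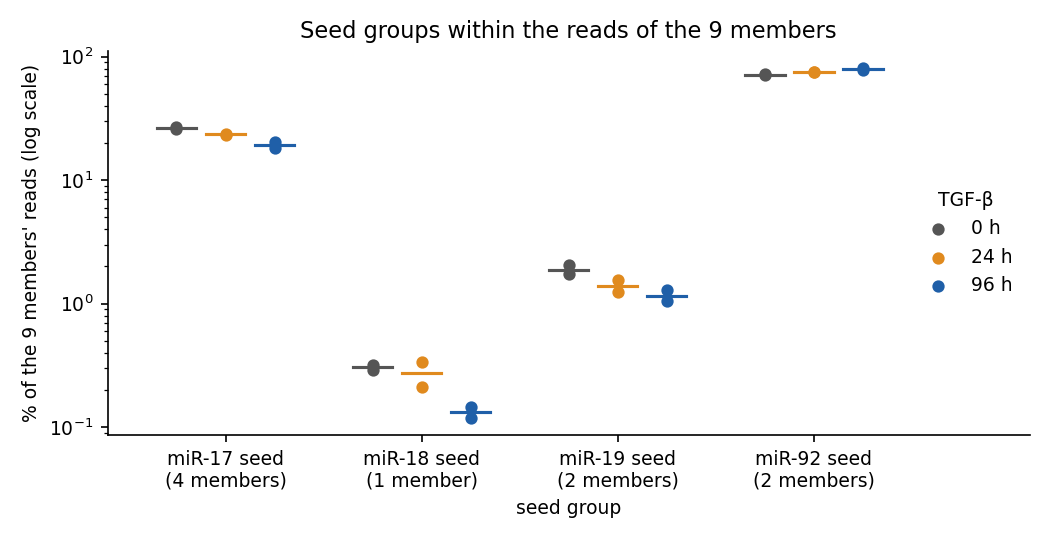
Share of each seed group in the reads of the 9 members, in percent on a log axis, for the 2 libraries (points) and their mean (line) at 0, 24 and 96 h. The miR-92 seed points lie higher at 96 h than at 0 h, and those of the miR-17, miR-18 and miR-19 seeds lie lower.

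Changes inside one cluster were unequal. The miR-17-92 members spanned 1.55 on the log2 scale at 96 h, from miR-18a-5p to miR-92a-3p, and those of miR-106b-25 spanned 0.63, from miR-106b-5p to miR-25-3p. Within a library, miR-17-5p reads over miR-20a-5p reads were 0.613 and 0.718 before TGF-β, 0.574 and 0.500 after 24 h, and 0.434 and 0.416 after 96 h. This pair, 2 bases apart in sequence, separated further at each time point with no overlap. How often other pairs do so was not computed. Among ratios of 486 tested miRNAs to miR-92a-3p, 53.3% were lower and 21.2% higher at 96 h than at 0 h without overlap. As a share of the miR-17-92 reads, miR-18a-5p was 0.515% and 0.596% before TGF-β and 0.183% and 0.2201% after 96 h, and miR-19a-3p was 1.53% and 1.60% before TGF-β and 0.677% and 0.633% after 96 h. In miR-106b-25, miR-93-5p over miR-25-3p was 0.442 and 0.525 before TGF-β and 0.345 and 0.338 after 96 h, while miR-106b-5p over miR-93-5p was 0.274 and 0.293 before TGF-β and 0.255 and 0.267 after 96 h.

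Set against miR-92a-3p in the same library, 7 of the other 8 members were lower at 96 h than at 0 h in both libraries, and miR-20a-5p overlapped. The same was true of 53.3% of 486 tested miRNAs with a read in every library. The median log2 change of this ratio was -0.92 for the 8 members and -0.46 for the 486 miRNAs.

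The other strands of the 9 precursors, which are mostly degraded as the guide strand is loaded, were measured as well. Of 9, 7 passed the filter, and 4 fell by more than 1 on the log2 scale from 0 to 96 h, against 13.2% of all tested miRNAs. These were miR-17-3p (-1.64 ± 0.41, edgeR, adjusted p = 0.0098), miR-92a-1-5p (-1.78 ± 0.47, adjusted p = 0.0118), miR-93-3p (-1.05 ± 0.32, adjusted p = 0.0224) and miR-25-5p (-1.36 ± 0.23, adjusted p = 0.0012). The median over the 7 was -1.05, against -0.10 over all tested miRNAs. Behind the largest of these changes stood few reads: miR-92a-1-5p was counted 18 and 32 times before TGF-β, 11 and 20 after 24 h, and 12 and 7 after 96 h. For miR-25-5p there were 122 and 117 reads before TGF-β, 65 and 66 after 24 h, and 69 and 56 after 96 h, or 44.7 and 34.9, 24.2 and 20.2, and 15.7 and 15.2 TMM-CPM. The log2-fold change of miR-93-3p, the smallest of the 4, also fell short of the fold threshold in some alternatives. It was -0.97 with DESeq2 size factors, -0.99 with no expression filter and -0.92 without 0 h replicate 1. Of the 4 calls at an adjusted p under 0.05, that of miR-25-5p held in all 15 alternatives. With single libraries left out, that of miR-17-3p was lost without 0 h replicate 2 (adjusted p = 0.0622) or 96 h replicate 1 (0.0884), that of miR-92a-1-5p without 0 h replicate 2 (0.0822) or 96 h replicate 2 (0.0837), and that of miR-93-3p without 24 h replicate 1 (0.053) or 96 h replicate 1 (0.173). The call of miR-93-3p was also lost under DESeq2 (adjusted p = 0.0529) and that of miR-92a-1-5p under limma (adjusted p = 0.077, with 1 library at 96 h).

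For miR-106b the 3p strand was the more abundant one. It stood at 828 and 680.0 TMM-CPM before TGF-β, 672 and 742 after 24 h, and 659.9 and 771 after 96 h, with a log2-fold change of -0.08 ± 0.16 after 96 h (edgeR, adjusted p = 0.72) that was 0.00 with DESeq2 size factors. Its reads over those of miR-106b-5p were 2.22 and 1.37 before TGF-β, 1.41 and 2.33 after 24 h, and 2.81 and 2.89 after 96 h. The 96 h ratios lay above those of both earlier times. The 5p strand had fallen and the 3p strand had not passed the test, and no p was computed for the difference between them.

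Across the 7 precursors with both strands tested, the ratio of the more to the less abundant strand was higher at 96 h than at 0 h in both libraries for 4 (miR-17, miR-92a, miR-106b and miR-25) and lower for 1, miR-18a. Among 108 precursors whose strands share one name and were both tested, 38.0% were higher and 14.8% lower, with a median log2 change of 0.43 against 0.71 for the 7. miR-25-3p over miR-25-5p was 68.9 and 92.7 before TGF-β, 117 and 130 after 24 h, and 170.0 and 194 after 96 h, and the time points did not overlap. For miR-18a the 5p strand over the 3p strand went from 4.19 and 4.81 at 0 h to 2.19 and 3.42 after 96 h, with 3p counts of 13 to 26.

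**Figure D5:**
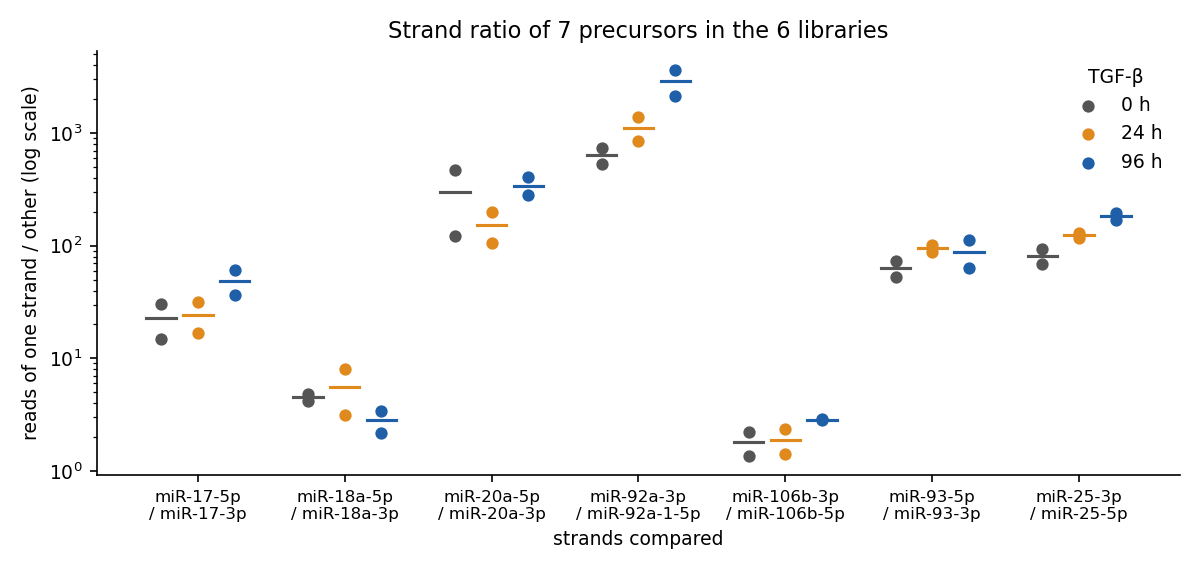
Reads of the more abundant strand over reads of the other strand of the same precursor, on a log axis, for 7 precursors in the 2 libraries (points) and their mean (line) at 0, 24 and 96 h. The ratio of miR-25 goes from 68.9 and 92.7 at 0 h to 170.0 and 194 at 96 h, that of miR-18a is lower at 96 h, and those of miR-20a and miR-93 overlap.

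The related miR-106a-363 cluster on chromosome X had few reads of its own. Of its 10 mature miRNAs, 3 passed the filter, and no reads at all were counted for miR-18b-3p, miR-20b-3p, miR-92a-2-5p and miR-363-5p. A count of 0 allows up to 3 reads, or 1.28 CPM of the total at the lowest depth and 0.502 at the highest. miR-106a-5p, which differs from miR-17-5p by C1A, had 31 and 49 reads before TGF-β, 17 and 38 after 24 h, and 35 and 25 after 96 h, or 0.0201 to 0.0375 reads for each read of miR-17-5p. Its log2-fold change from 0 to 96 h was -0.82 ± 0.36 (edgeR, adjusted p = 0.0853), and that of miR-20b-5p, with 6 to 12 reads in a library, was -0.98 ± 0.57 (adjusted p = 0.19). Reads of such near-identical sequences can be assigned to one or the other by a single base, and the values of miR-106a-5p are uncertain to that extent. miR-363-3p, with the miR-92 seed, had 20 and 23 reads at 0 h and 9 and 10 after 96 h, a log2-fold change of -1.57 ± 0.45 (edgeR, adjusted p = 0.0173) that was lost under DESeq2 (adjusted p = 0.0729) and when any one library of 0 or 96 h was left out (adjusted p = 0.0547 to 0.12). On the side of the 2 shared miRNAs, the companion strands specific to chromosome 13 had reads in every library (miR-92a-1-5p 7 to 32, miR-19b-1-5p 1 to 14), and those specific to chromosome X had 0 (miR-92a-2-5p) and 1 (miR-19b-2-5p) over all 6 libraries.

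Outside the clusters, 2 further miRNAs with a member's seed passed the filter, both with the miR-92 seed. miR-92b-3p was at 720.2 and 642 TMM-CPM before TGF-β, 573 and 540.4 after 24 h, and 355 and 384 after 96 h. The 3 time points did not overlap, and the log2-fold change at 96 h was -0.88 ± 0.14 (edgeR, adjusted p = 0.0009). In the same libraries miR-92b-3p over miR-92a-3p went from 0.147 and 0.127 at 0 h to 0.1002 and 0.104 after 24 h and 0.0604 and 0.0556 after 96 h, although the 2 miRNAs share 19 of 22 bases. Of 486 tested miRNAs, 53.3% had a ratio to miR-92a-3p that was lower at 96 h without overlap. miR-32-5p had a log2-fold change of -0.17 ± 0.19 (edgeR, adjusted p = 0.51). Over the 5 seed relatives outside both clusters that were tested, 2 fell, against 21.2% of all tested miRNAs, and the median was -0.88, against -0.10.

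As a description of likeness, the mean log2 level of each cluster's members was correlated with 309 other miRNAs over the 6 libraries, which share their depth and scaling. The patterns most like that of miR-17-92 were those of miR-550a-5p (Pearson's r = 0.98), miR-33b-3p (0.98) and miR-30c-1-3p (0.98), and most like that of miR-106b-25 were miR-30e-5p (0.98), miR-324-3p (0.97) and miR-138-5p (0.97). All 6 were lower on average at 96 h than before TGF-β, from 1020 to 832 TMM-CPM for miR-30e-5p and from 272 to 79.2 for miR-138-5p. They were picked for likeness to cluster means that were themselves lower at 96 h, so this direction follows from the choice.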

How the data were processed

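Small RNA libraries of A549 cells (2 each at 0, 24 and 96 h, 2 runs per library, 12 samples) were made with the small RNA kit of Illumina. The authors counted reads with miRDeep2 and deposited counts, whole reads per mature miRNA and precursor with both runs summed. The authors also deposited a normalized signal, the sum over both runs after scaling each to a common total. There, 1 column repeated another and was not used, so 96 h replicate 2 has no normalized value. The submitters' notes name FastQC and hg19, and the miRNA reference set is not given in the sources used here. Reads carry no molecular identifiers, so intervals cover counting error only. No source says whether replicates were separate cultures, so p-values measure the spread between these libraries.

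Counts were tested in R 4.3.3 with edgeR 4.0.16: TMM, filterByExpr with a minimum count of 10, the quasi-likelihood F-test over all 6 libraries with time as the only term, and Benjamini-Hochberg adjustment over 491 miRNAs. SE was the log2-fold change divided by the root of F. A miRNA rose or fell at an adjusted p under 0.05, and the study's fold threshold (absolute log2-fold change above 1) was applied as a second count. The fit was also run on simulated data whose changes were larger than that of any member, which does not show how well changes of the members' size are found. Alternatives used DESeq2 1.42.0 and limma 3.58.1 (pseudocount 1), other scalings and filters, summed precursor entries, a replicate block, and each library left out. Shares have 95% Wilson intervals (scipy). Named miRNAs were the members, their other strands, the miR-106a-363 cluster, tested miRNAs with a member's seed, and per cluster the 3 others of at least 10 TMM-CPM with the most similar pattern (log2 of TMM-CPM plus 1). Of 30 names, 29 had a mature sequence in RefSeq, and positions and host genes come from GRCh37 with GENCODE release 44. The members and lists were chosen with earlier results of these data known.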

Additional observations from a re-analysis of the deposited data

Results flagged for a closer look

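One result differed between the time points by a direct test. For miR-92b-3p, which shares the miR-92 seed with 2 members, the changes after 24 and 96 h, each taken against the same 0 h libraries, were not equal: from 24 to 96 h the log2-fold change was -0.59 ± 0.14 (edgeR quasi-likelihood test, adjusted p = 0.0245), and both 96 h libraries lay below both 24 h libraries. The call held under 11 of 15 alternatives. It was lost when either 24 h library or either 96 h library was left out (adjusted p = 0.119 to 0.252), with log2-fold changes of -0.48 to -0.57. With 2 libraries at each time point, no library could be tested for standing apart from its group.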

How the results depend on the processing

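The counts of members called moved with the scaling and with the 96 h libraries. The limma fit on the deposited normalized values has 1 library at 96 h, as do the fits without a 96 h library, and its test and scale both differ from those of the report. From 0 to 96 h, the number of members at an adjusted p under 0.05, 5 as reported, was 8 with total counts and 8 with limma. Members that also passed the fold threshold, 1 as reported, numbered 6 with total counts, 4 with total counts without miR-21-5p, 7 with limma, 2 with sums over precursor entries and 5 with no fold threshold. From 0 to 24 h, 0 as reported became 2 with total counts and 1 without miR-21-5p. From 24 to 96 h, 0 as reported became 5 with total counts and 2 without miR-21-5p (2 and 1 past the fold threshold), 2 with no expression filter and 3 with only the libraries compared. Leaving out each library gave 0 to 1 (24 h), 0 to 6 (96 h), and 0 to 2 (24 to 96 h), or 0 to 1 past the fold threshold from 0 to 96 h and 0 to 1 from 24 to 96 h.

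Replicate numbers did not pair the libraries: deviations of the same number correlated at -0.30 (0 and 24 h), 0.31 (0 and 96 h) and -0.18 (24 and 96 h). With a replicate block, 2 members were called from 24 to 96 h, and 4 from 0 to 96 h.

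Directions turned for changes that did not pass the test of the report. The turned value of miR-20a-5p at 96 h with total counts was itself called lower (edgeR, adjusted p = 0.0152). With total counts, the same less miR-21-5p, and limma, in this order, the log2-fold change of miR-20a-5p at 96 h was -0.52, -0.15 and -0.49, and that of miR-25-3p from 24 to 96 h was -0.40, -0.13 and -0.50, while that of miR-92a-3p at 24 h was -0.16, -0.053 and -0.15. With total counts and limma, miR-92a-3p was at -0.37 and -0.50 at 96 h (under limma called lower) and at -0.21 and -0.35 from 24 to 96 h, and miR-20a-5p at -0.22 and -0.20 from 24 to 96 h. At 24 h miR-20a-5p was at 5.5e-05 with DESeq2 and 0.0075 with no filter, and miR-106b-3p at 96 h was at 0.0022 with DESeq2 and with its size factors. Leaving out each library gave, from 24 to 96 h, -0.16 to 0.044 for miR-17-5p, -0.58 to 0.032 for miR-19a-3p and -0.17 to 0.10 for miR-19b-3p, for the first 24 h -0.62 to 0.10 for miR-18a-5p, -0.22 to 0.21 for miR-20a-5p and -0.42 to 0.10 for miR-106b-5p, and at 96 h -1.03 to 0.52 for miR-20a-3p, -0.20 to 0.12 for miR-106b-3p and -0.44 to 0.21 for miR-32-5p.

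The change of the cluster ratio, -0.62 on the log2 scale, was -0.24 without miR-19b-3p and miR-92a-3p, -0.59 without these and miR-25-3p, and -0.12 with equal weights. With miR-21-5p out of the total, changes in share were -0.087 for miR-17-92, -0.70 for miR-106b-25, and -0.78, -1.55, -1.04 and -0.18 for the miR-17, miR-18, miR-19 and miR-92 seed members. The cause of these shifts was not tested. Of 33 turns of direction, none was of a change called in the report. The 32 shifts of a count, ratio or share could not reverse a call, and they include the losses of calls at 96 h given above. Depth limits the strands and miR-106a-363 miRNAs with few reads.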
